A study of Homo sapiens with 12 samples.

Results

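The genes described here are 10 members of the retinoblastoma (RB) and E2F families: the pocket proteins RB1, RBL1 and RBL2, the factors E2F1, E2F2, E2F3, E2F4, E2F7 and E2F8, and the E2F partner TFDP1. They were taken by symbol as members of the families, with no threshold on a measured value but with earlier results of these data known. Each matched exactly 1 of the 63568 Ensembl identifiers of the count table, and all 10 were among the 25249 identifiers that passed the filter on low counts. RBL1 is the member that the study itself displayed, among its genes of TGF-β signalling. RNA was sequenced from MDA-MB-231 cells, an established line of triple negative breast cancer that here carried a nuclear fluorescent label and was cultured in droplets of Matrigel, a basement membrane gel. The 12 samples fall into 6 conditions of 2 replicates each: cells without drug collected on day 2 (C1) or on day 4 (C2), and cells given Paclitaxel on day 2 and collected on day 4, at 0.0005, 0.005, 0.05 or 0.5 μM. The day of treatment follows the sample labels, and the study's methods give a later day for its imaged cultures, so the length of exposure is uncertain. All samples came from 1 cell line with a wild-type label, and the sources used here do not say whether the untreated cultures received the solvent of the drug. The replicates were described as biological, but nothing names separate cultures by day or passage, so p-values measure the spread between these samples.

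The pocket proteins bind E2F factors and hold E2F target genes silent in resting and early G1 cells. Phosphorylation by cyclin D and cyclin E kinases releases the activator factors E2F1, E2F2 and E2F3, which bind DNA together with a DP partner such as TFDP1 and switch on the genes of DNA replication. E2F4 acts mainly as a repressor with RBL1 (p107) or RBL2 (p130), and E2F7 and E2F8 are atypical repressors that bind without a DP partner and close the wave of E2F transcription later in the cycle. Several of these genes are E2F targets themselves. Paclitaxel stabilises microtubules and holds dividing cells in mitosis. MDA-MB-231 cells are known to retain RB1.

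RefSeq start windows (250 bases before to 50 after a start, build GRCh38.p14) were at hand for 9 of the 10 members. The RB1 window belongs to a start inside the gene, 172699 bases from the gene's own start, and is left aside, and E2F8 had no entry. The words searched on both strands were TTTCCCGC, TTTCGCGC, TTTGCCGC and TTTGGCGC, forms of the E2F recognition sequence, and 3.31% of 35116 windows held at least 1 of them. They occurred in the windows of RBL1, E2F1, E2F2, E2F3 and TFDP1 and not in those of RBL2, E2F4 and E2F7. The 150 bases before the start of the genes with a word are printed from 5′ to 3′ so that the words can be read beside the values that follow. Capitals mark the E2F words.
RBL1 chr20:37095998-37096147 (minus strand): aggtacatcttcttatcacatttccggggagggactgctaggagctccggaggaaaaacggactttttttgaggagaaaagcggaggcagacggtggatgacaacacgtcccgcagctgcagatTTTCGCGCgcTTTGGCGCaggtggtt
E2F1 chr20:33686386-33686535 (minus strand): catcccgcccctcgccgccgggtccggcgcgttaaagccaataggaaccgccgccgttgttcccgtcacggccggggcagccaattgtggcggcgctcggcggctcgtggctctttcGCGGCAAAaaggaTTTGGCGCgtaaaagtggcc
E2F2 chr1:23531234-23531383 (minus strand): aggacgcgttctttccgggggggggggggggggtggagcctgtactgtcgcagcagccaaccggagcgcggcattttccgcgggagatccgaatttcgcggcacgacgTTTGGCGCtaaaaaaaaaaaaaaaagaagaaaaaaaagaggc
E2F3 chr6:20401729-20401878 (plus strand): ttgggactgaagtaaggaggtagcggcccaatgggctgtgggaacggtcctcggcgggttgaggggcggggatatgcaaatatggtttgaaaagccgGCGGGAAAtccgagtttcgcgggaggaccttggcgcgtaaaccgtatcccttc
TFDP1 chr13:113584603-113584752 (plus strand): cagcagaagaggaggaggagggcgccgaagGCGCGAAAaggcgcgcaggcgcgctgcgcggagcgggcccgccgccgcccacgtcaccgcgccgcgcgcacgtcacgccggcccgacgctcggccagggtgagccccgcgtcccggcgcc
RBL1 held 2 words on the printed strand, beginning at -26 and -16 from the start, and E2F1 also held 2, beginning at -33 (reverse strand) and -20. E2F2 had its word at -42, E2F3 at -53 on the reverse strand, and TFDP1 at -120 on the reverse strand. A match of letters is not a measured binding site, and a window without a word says only that these letters are not in it.

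Library totals ranged from 38380629 to 79169121 counts. The cells had the transcripts known for this line: VIM, a mesenchymal intermediate filament, was at 797 to 1370 CPM (counts scaled to a common library size), while ESR1 and PGR, the hormone receptors, reached at most 0.46 and 0.0867 CPM and the epithelial cadherin CDH1 at most 0.201. The receptor gene ERBB2 was at 26.6 to 52.4 CPM, and the epithelial genes EPCAM and KRT19 at 4.37 to 6.77 and 144 to 277 CPM. The summed level of 8 fibroblast markers was 9.34 to 17.1 CPM in untreated and 13.1 to 21.8 CPM in treated samples, and that of 3 leukocyte markers 0.447 to 0.644 CPM and 1.05 to 1.71 CPM. Of these lists 2 of 6 and 2 of 2 tested genes were called higher in treated samples, while the fibroblast genes COL1A1 and PDGFRB, which made up most of the sum, were at 4.8 to 9.85 and 3.61 to 9.15 CPM and not called, COL1A2 and DCN reached at most 0.13 and 0.153 CPM and the leukocyte genes PTPRC and CD3E at most 0.281 and 0.03. Those called higher were PDGFRA (log2 change 2.73, at most 2.16 CPM) and COL3A1 (2.03, at most 1.52 CPM) of the fibroblast list, and CD14 (1.17, at most 1.62 CPM) and PTPRC (1.43) of the leukocyte list. The replicates of C1 stood apart from each other: over 11193 genes above 8 CPM their median absolute log2 difference was 0.42, against 0.06 to 0.16 within the other conditions, and C1 held both the deepest and the shallowest library. All 10 members were higher in C1 replicate 1 than in C1 replicate 2, by 0.18 to 1.14 on the log2 scale. The main results that use C1 are therefore also given without its samples.

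Paclitaxel-treated cells had less RNA of 8 of the 10 members than untreated cells. The 8 treated samples were lower than the 4 untreated samples for RBL1 (2.1-fold), E2F1 (2.13-fold), E2F2 (2.2-fold), E2F8 (2.27-fold), TFDP1 (1.62-fold), E2F7 (1.42-fold), RB1 (1.34-fold) and RBL2 (1.28-fold), and for each of these every treated sample was below every untreated sample. The share of all genes with such a full separation was not counted, so it only describes these samples. E2F3 and E2F4 did not pass the test. Over all genes tested 11.3% were called lower in this comparison (edgeR's quasi-likelihood test, Benjamini-Hochberg adjusted p under 0.05), against 8 of 10 members. The median log2 change of the members was -0.60, that of all genes tested was -0.002 and that of the 11193 genes above 8 CPM was -0.15. In bulk RNA, fewer cells of a type and less RNA per cell cannot be told apart, and the part of the marker sums above in these differences was not tested. All treated samples were collected on day 4 and C1 on day 2, so time is mixed with treatment in this comparison. Its p-values also count the different doses, and the different days, as replicates of a single group. With C1 left out, the 8 treated samples against the 2 samples of C2 gave 8 members lower, where 6.35% of all genes were called lower, and leaving out each sample in turn gave 8 to 10.

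**Figure D1:**
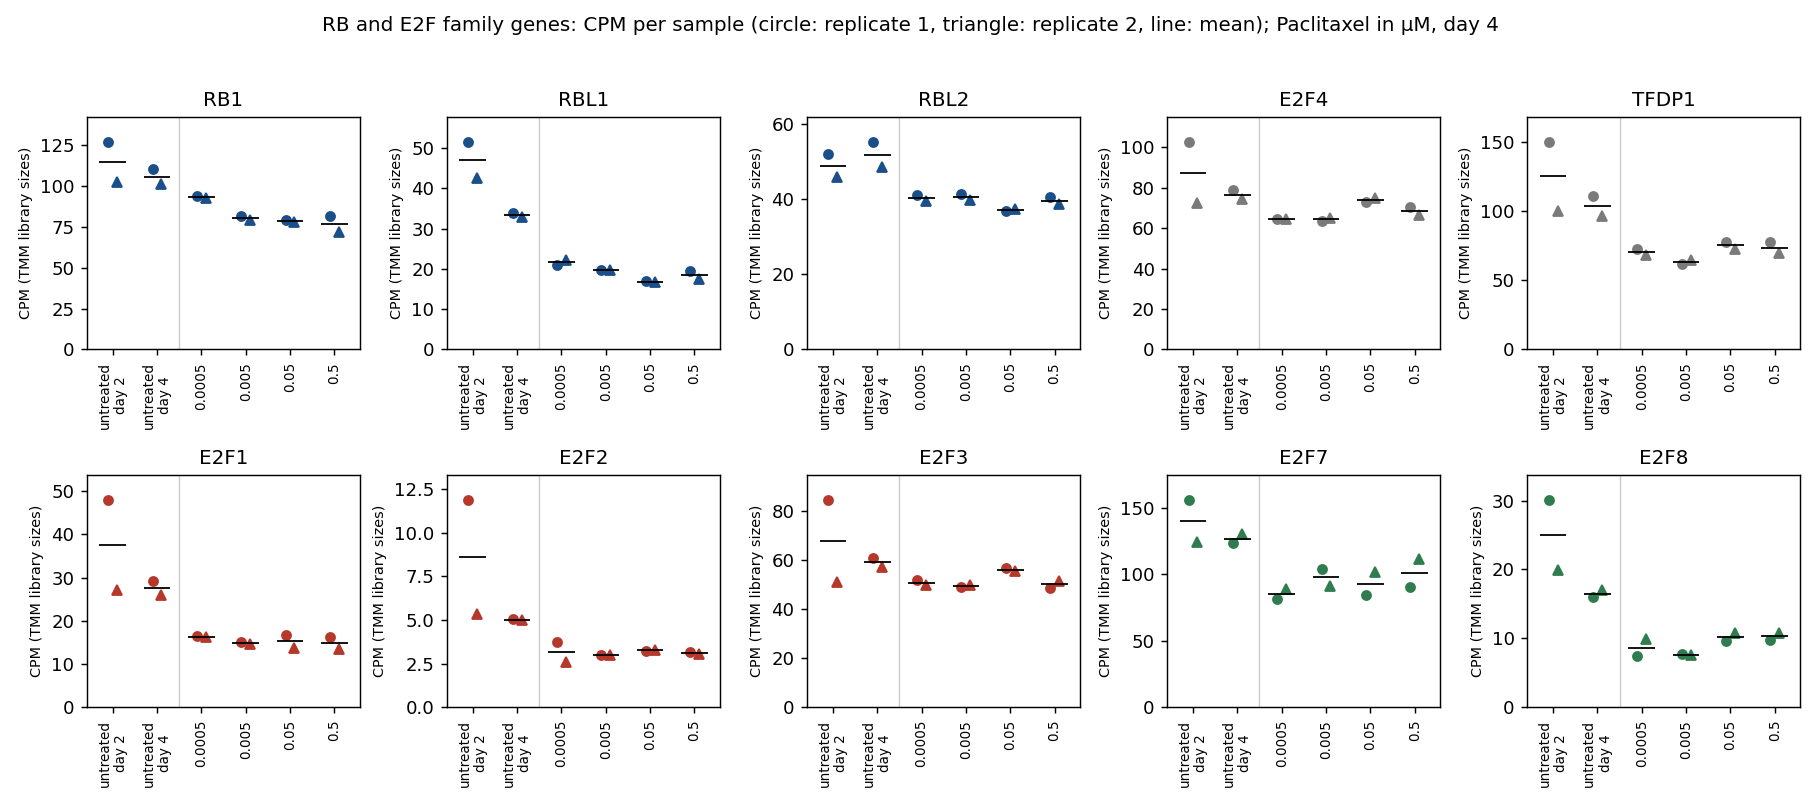
CPM (effective library sizes) of each member in the 12 samples, by condition, with circles for replicate 1, triangles for replicate 2 and lines for means. In the panels of RB1, RBL1, RBL2, TFDP1, E2F1, E2F2, E2F7 and E2F8 all 8 treated samples lie below all 4 untreated samples, and C1 replicate 1 is the highest sample of every panel except RBL2. The share of all genes separated in this way was not counted.

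Among the pocket proteins RBL1 had the largest change. RBL1 (chr20:35624752-35724400 in GRCh37, minus strand) encodes p107, which is made mainly in cycling cells. It was at 51.5 and 42.5 CPM in C1, 33.9 and 32.9 in C2 and, with rising dose, 21.1 and 22.3, then 19.8 and 19.6, then 16.9 and 16.7, then 19.5 and 17.6. No neighbouring conditions overlapped when ordered by their means, a trait that was not counted over all genes. The lowest condition was 0.05 μM, with a mean 2.8-fold below C1 of day 2 and a fitted level 1.99-fold below C2 of the same day. Treated against untreated, the log2 fold change was -1.07 (standard error 0.12, edgeR adjusted p = 1.6e-05), and it was -0.79 against C2 alone. RBL1 shares 213 bases, 3.58% of its exon length, with a long noncoding RNA on the opposite strand, and the strand setting of the counting is not given in the sources used here.

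RB1 (chr13:48877880-49173572, plus strand), the founding tumour suppressor of the family, had a smaller change. Its level was 127 and 103 CPM in C1, 110.1 and 101 in C2 and, with rising dose, 93.5 and 92.4, then 81.6 and 78.8, then 78.8 and 78.1, then 81.5 and 72.1. The means descended in the order of time and dose, from C1 to 0.5 μM, but C1 overlapped C2 and the highest doses overlapped each other. The log2 fold change of treated against untreated samples was -0.42 (standard error 0.10, edgeR adjusted p = 0.00418), and -0.35 against C2 alone. RBL2 (chr16:53467889-53525560, plus strand) encodes p130, the pocket protein most abundant in resting cells. RBL2 was at 45.9 to 52.1 CPM in C1, 48.6 to 55.3 in C2 and 36.9 to 41.4 over the 8 treated samples (median 39.7), a log2 fold change of -0.36 (standard error 0.08, edgeR adjusted p = 0.00436), and -0.39 against C2 alone. It was the only member with a higher mean in C2 than in C1, by 0.08 on the log2 scale, a difference that was not called. RBL2 shares 721 bases with an unnamed transcript and 609 bases with AKTIP, both on the opposite strand, which make up 8.89% and 7.51% of its exon length.

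Per kilobase of exon, and as a description with no test, the ratio of RBL1 to RBL2 was 1.26 to 1.35 in C1, 0.835 to 0.923 in C2 and 0.606 to 0.765 in the treated samples. The 3 ranges did not overlap.

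Of the activator factors E2F1 and E2F2 fell, and E2F3 did not pass the test. E2F1 (chr20:32263283-32274191, minus strand) was at 48.0 and 27.1 CPM in C1, 29.1 and 26.0 in C2 and, with rising dose, 16.4 and 16.2, then 15.0 and 14.5, then 16.7 and 13.7, then 16.3 and 13.5. With the conditions ordered by their means, the 4 doses overlapped in every neighbouring pair, while each lay clear of C2. The log2 fold change of treated against untreated samples was -1.09 (standard error 0.14, edgeR adjusted p = 4.46e-05), and -0.84 against C2 alone. E2F2 (chr1:23832930-23857725, minus strand) was the least abundant member, at 11.9 and 5.37 CPM in C1, 5.03 and 5.02 in C2 and 2.57 to 3.75 in the treated samples (median 3.08). Its log2 fold change was -1.14 (standard error 0.19, edgeR adjusted p = 0.000583), and it was -0.68 with C1 left out. E2F3 (chr6:20402110-20493945, plus strand) was at 84.8 and 51.0 CPM in C1, 61.1 and 57.2 in C2 and 48.8 to 56.7 in the treated samples (median 50.7). All 8 treated samples of E2F3 were below both C2 samples but only 4 were below the lower C1 sample, and its log2 fold change of -0.30 (standard error 0.11, 95% interval -0.54 to -0.06, edgeR adjusted p = 0.0605) did not pass the test and was -0.18 with C1 left out. Per kilobase of exon the ratio of E2F1 to RB1 was 0.632 to 0.906 in C1, 0.615 to 0.633 in C2 and 0.418 to 0.508 in the treated samples.

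E2F4 (chr16:67226058-67232821, plus strand), the repressor-type factor, was at 102.5 and 72.3 CPM in C1, 78.8 and 74.1 in C2 and 63.6 to 74.9 in the treated samples (median 65.7). Of the 8 treated samples 7 were below both C2 samples and 6 below all untreated samples. The log2 fold change of -0.27 (standard error 0.10, 95% interval -0.48 to -0.07, edgeR adjusted p = 0.0529) did not pass the test, although DESeq2 called all 10 members lower, and it was -0.16 with C1 left out. TFDP1 (chr13:114239036-114295788, plus strand), the shared DNA-binding partner of these factors, was at 150.2 and 101 CPM in C1, 111 and 96.6 in C2 and, with rising dose, 72.9 and 68.7, then 61.8 and 65.0, then 78.1 and 73.1, then 77.5 and 69.7. All treated samples of TFDP1 were below all untreated ones, with a log2 fold change of -0.70 (standard error 0.11, edgeR adjusted p = 0.000361), and -0.54 against C2 alone.

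Both atypical repressors fell. E2F8 (chr11:19245610-19263167, minus strand) was at 30.1 and 19.9 CPM in C1, 16.0 and 17.0 in C2 and, with rising dose, 7.47 and 9.83, then 7.65 and 7.52, then 9.56 and 10.7, then 9.74 and 10.8. Its condition means spanned 3.3-fold, the widest of the 10 members, and were lowest at 0.005 μM. The log2 fold change of treated against untreated samples was -1.18 (standard error 0.15, edgeR adjusted p = 6.37e-05), and -0.84 against C2 alone. E2F7 (chr12:77415028-77459349, minus strand) was at 156 and 125 CPM in C1, 123 and 130.2 in C2 and 81.5 to 112 in the treated samples (median 91.2), with a log2 fold change of -0.50 (standard error 0.10, edgeR adjusted p = 0.00234), and -0.42 against C2 alone. Its lowest condition was the lowest dose, and in the order of the means each dose overlapped the next, although 0.0005 μM lay below 0.005 μM. The ratio of E2F8 to E2F7 per kilobase was 0.242 to 0.293 in C1, 0.198 in both C2 samples and 0.111 to 0.172 in the treated samples.

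Compared per kilobase of exon over all samples, the most abundant members were TFDP1 (22.8 CPM per kb), E2F4 (20.2), E2F7 (17.1), RB1 (14.2) and E2F3 (10.7). E2F1 followed at 7.82, RBL2 at 5.32, RBL1 at 4.40 and E2F8 at 3.15, and E2F2 was lowest at 0.798. The order changed in places between conditions: the mean of E2F4 was above that of TFDP1 at 0.005 μM (17.9 against 16.9 CPM per kb) and 0.05 μM (20.5 against 20.2), and in C1 E2F1 was above E2F3 (13.97 against 13.08) and RBL1 above RBL2 (7.89 against 6.04). RBL1, E2F8 and E2F2, with the lowest levels over all samples, and E2F1 were the members at more than 2-fold in treated against untreated samples. That size rested on C1 replicate 1, without which the log2 changes of RBL1, E2F1, E2F2 and E2F8 were -0.92, -0.84, -0.72 and -0.94.

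**Figure D2:**
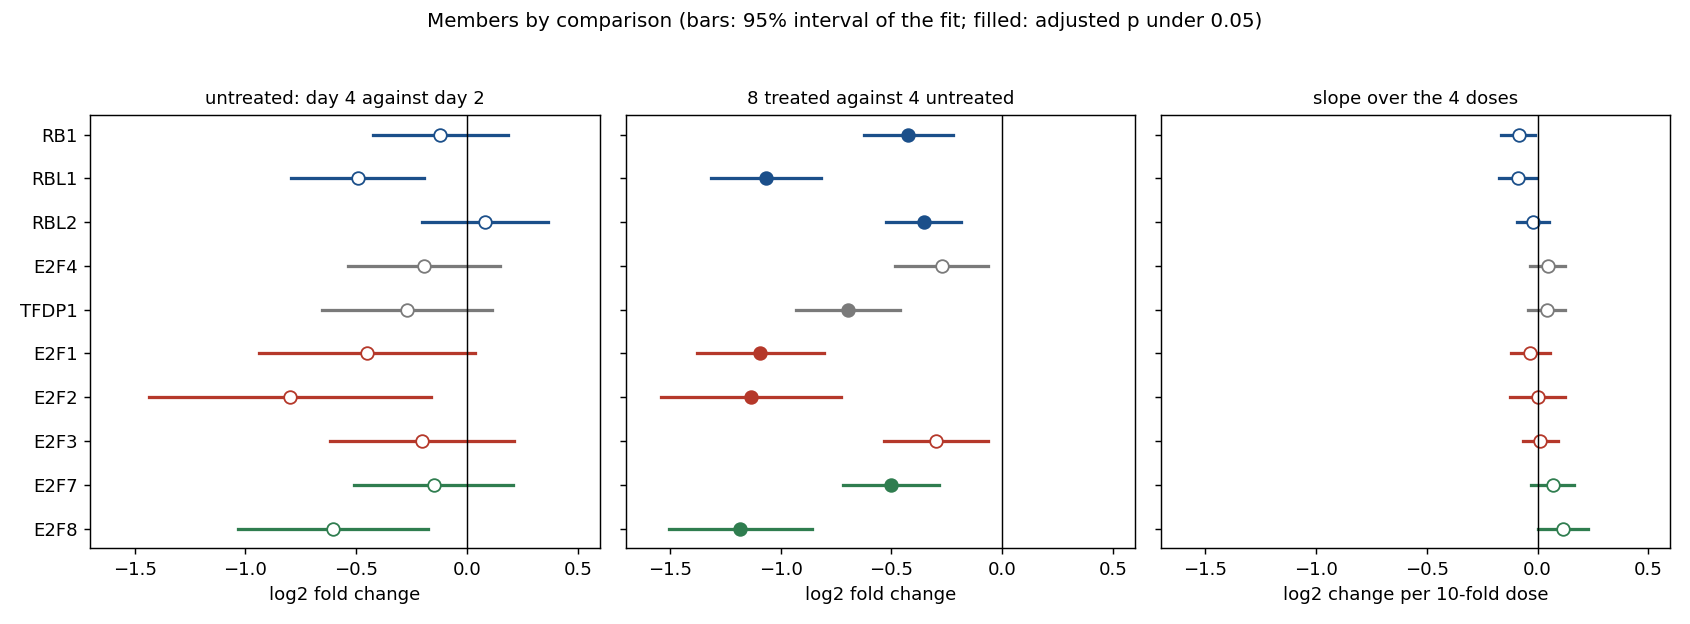
Log2 changes of the members in the comparison of C2 with C1, of treated with untreated samples, and per 10-fold dose among treated samples, with 95% intervals of the fit and filled points where the adjusted p was under 0.05. All filled points are in the middle panel, where 8 of 10 members were called lower, and the slopes of the right panel lie between -0.09 and 0.12.

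Each dose was next compared with C2, the untreated cells of the same day. The 4 comparisons share the C2 samples and are given side by side, not as independent tests. All 10 members had a negative log2 fold change at every dose, with medians of -0.57, -0.55, -0.47 and -0.48 from the lowest to the highest dose. The genes above 8 CPM had medians of -0.04, -0.12, -0.11 and -0.11, and 56.2%, 69.5%, 65.8% and 64.4% of them were negative. At 0.0005 μM 2 members were called lower, where 0.479% of all genes tested were. The next dose, 0.005 μM, had 3 members lower (0.776% of all genes). At 0.05 μM there were 4 (3.23%), at the highest dose 2 (1.96%), and none was called higher at any dose. An unadjusted p under 0.05 was reached by 7, 8, 7 and 7 members. The last of these by p ranked 4106, 4404, 4296 and 4991 among the 25249 genes tested, so many other genes reached it too.

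RBL1 was the member called at every dose. Relative to C2 it had log2 fold changes of -0.63, -0.76, -0.99 and -0.85 in order of dose, each with a standard error of 0.14, and the edgeR adjusted p was 0.0341, 0.0122, 0.0018 and 0.00556. E2F8 was called at the 3 lower doses, at -0.93 (standard error 0.20, edgeR adjusted p = 0.0308), -1.12 (0.20, adjusted p = 0.0119) and -0.70 (0.20, adjusted p = 0.0488), and had -0.69 (0.20, adjusted p = 0.0629) at 0.5 μM. E2F1 was called at the 2 higher doses, at -0.86 (standard error 0.23, edgeR adjusted p = 0.0376) and -0.89 (0.23, adjusted p = 0.0403), with -0.76 and -0.90 at the lower doses. The 4 estimates of E2F1 lay within each other's 95% intervals. TFDP1 was called at 0.005 μM with -0.71 (standard error 0.18, edgeR adjusted p = 0.04998), just inside the threshold, and RBL2 at 0.05 μM with -0.48 (standard error 0.13, edgeR adjusted p = 0.0419).

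The remaining members were called at no dose. RB1 had -0.18, -0.40, -0.43 and -0.46 from the lowest to the highest dose, with an adjusted p of 0.0749 at 0.5 μM (edgeR). E2F2 had -0.62 to -0.75 with standard errors of 0.30, and E2F7 -0.32 to -0.58. E2F3 had -0.08 to -0.26 and E2F4 -0.05 to -0.25.

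**Figure D3:**
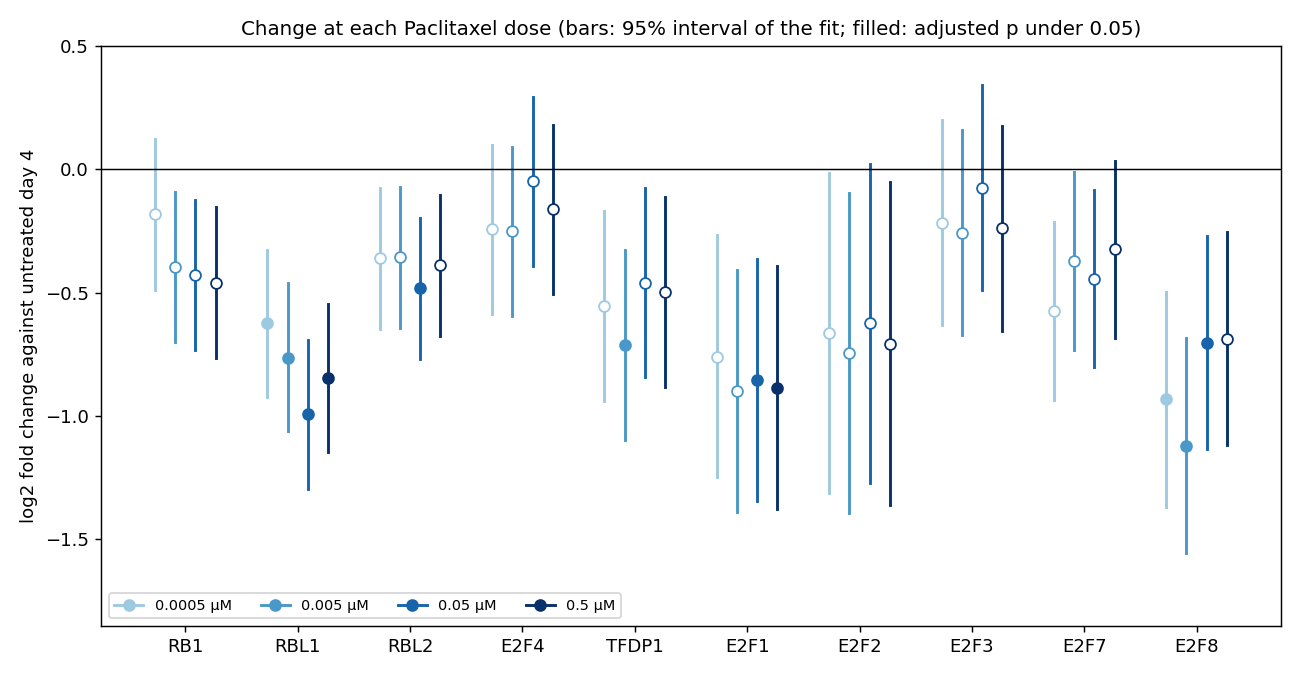
Log2 fold change of each member against C2 at the 4 Paclitaxel doses, darker for higher doses, with 95% intervals of the fit and filled points where the adjusted p was under 0.05. Every point lies below 0, and RBL1 is filled at all 4 doses.

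These counts changed with the samples that entered the fit. With both samples of C1 left out, 7, 7, 8 and 7 members were called lower from the lowest to the highest dose, where 4.5%, 6.13%, 9.07% and 10.7% of all genes were. The same counts came without either C1 sample alone. At 0.0005 μM the count was 1 without replicate 1 of 0.05 μM and 0 without any of the other 9 samples. At 0.005 μM it was 0 without either C2 sample or either sample of that dose. At 0.05 μM it was 1 without any of the 10 samples outside C1, RBL1 being the member that stayed called in all 21 alternatives. At 0.5 μM it was 0 without C2 replicate 1 or replicate 2 of that dose and 1 without any of the other 8.

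Among the treated samples no member was called on the dose. The slopes were -0.09 to 0.12 on the log2 scale per 10-fold dose, and 0 members were called, where 3.06% of all genes were called in either direction (edgeR, with DESeq2 also calling 0). An unadjusted p under 0.05 was reached by 3 members: RB1 at -0.09 (95% interval -0.16 to -0.01), RBL1 at -0.09 (-0.17 to -0.005) and E2F8 at 0.12 (0.003 to 0.23). The share of all genes at that unadjusted threshold was not counted. E2F1 had -0.03 (-0.12 to 0.06) and E2F2 0.00 (-0.13 to 0.13). The count stayed at 0 when each treated sample was left out in turn.

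No member was called between day 2 and day 4 of untreated culture. The edgeR count was 0 of 10, where 0.325% of all genes were called in either direction, DESeq2 called 1 member (RBL1), and 3 had an unadjusted p under 0.05. These were RBL1 with a log2 fold change of -0.49 (standard error 0.14, edgeR adjusted p = 0.265), E2F8 with -0.60 (0.20, adjusted p = 0.345) and E2F2 with -0.80 (0.29, adjusted p = 0.412). By p they ranked 343, 705 and 1109 among the 25249 genes tested. For RBL1, E2F2 and E2F8 both C2 samples were below both C1 samples. The share of all genes with this separation was not counted, and 68.1% of the genes above 8 CPM had a negative log2 change in C2 against C1. The comparison turned on C1. Without C1 replicate 2, 6 members were called lower, where 5.27% of all genes were, with RBL1 at -0.59, E2F1 at -0.76, E2F2 at -1.20, E2F3 at -0.48, E2F8 at -0.83 and TFDP1 at -0.49. Without C1 replicate 1 no member was called, where 11% of all genes were called in either direction, and RBL1 and E2F8 had -0.35 and -0.27 while E2F1 had 0.02 and E2F3 0.21.

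The genes that the family acts on were followed through lists chosen by function. Of 40 E2F target genes of the G1/S transition, 40 were lower in treated than in untreated samples and passed the test, where 11.3% of all genes did, with a median log2 change of -0.84. In untreated culture, C2 against C1, 68.1% of the genes above 8 CPM had a negative log2 change (median -0.10). All 40 listed genes also had a negative log2 change there and none was called (median -0.47). With C1 replicate 1 or replicate 2 left out that median was -0.36 or -0.50, and 12 or 23 of the 40 were called lower, against 6.23% and 5.27% of all genes. Against C2 the list had 4, 17, 22 and 11 genes called lower from the lowest to the highest dose and none called higher (0.479%, 0.776%, 3.23% and 1.96% of all genes were lower), with medians of -0.48, -0.66, -0.59 and -0.51. GINS2, a subunit of the replicative helicase complex, fell by 1.32 on the log2 scale in treated against untreated samples (standard error 0.15, edgeR adjusted p = 2.01e-05), from means of 49.2 CPM in C1 and 31.6 in C2 to 13.9 to 18.4 at the 4 doses. MCM5, a helicase subunit, CDC45, which joins it, and PRIM1, the primase, had -1.15, -1.12 and -1.11. Against C2 alone GINS2, MCM5, CDC45 and PRIM1 had -0.95, -0.84, -0.76 and -0.70 and were still called. At 0.5 μM against C2, POLA2, a subunit of DNA polymerase alpha, was at -1.09 (standard error 0.21, edgeR adjusted p = 0.0127) and CDC6, the replication licensing factor, at -0.84 (0.15, adjusted p = 0.0073). None of the 40 was called on the dose slope, whose median was -0.01. With C1 left out 30 of 40 were called lower in treated samples (median -0.55, against 6.35% of all genes), and 24, 36, 31 and 29 at the 4 doses, against 4.5%, 6.13%, 9.07% and 10.7% of all genes.

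The 24 G2/M genes, which the MuvB complex, MYBL2 and FOXM1 switch on later in the cycle, were followed in the same way. In treated against untreated samples 10 were called lower and none higher (median -0.38), where 11.3% of all genes were lower and 13.1% higher, among them CDK1 at -1.01 (standard error 0.17, edgeR adjusted p = 0.000475), TOP2A at -0.94, NUSAP1 at -0.82 and AURKB at -0.74. With C1 left out 5 of the 24 were called lower (median -0.12, against 6.35% of all genes), these 4 among them at -0.61, -0.58, -0.51 and -0.46. Between C1 and C2 all 24 had a negative log2 change in C2 and none was called (median -0.55), and without C1 replicate 1 or replicate 2 the median was -0.53 or -0.48 and 13 or 8 were called lower, against the same shares of all genes as for the G1/S list. Of the genes above 8 CPM 68.1% had a negative log2 change in C2 against C1. Against C2 the medians of the 24 genes were -0.21, -0.33, -0.13 and 0.20 with rising dose. In that order 0, 0, 3 and 1 were called lower (0.479%, 0.776%, 3.23% and 1.96% of all genes) and 0, 0, 0 and 3 higher (1.87%, 2.5%, 5.09% and 4.36%). At 0.5 μM the mitotic cyclin CCNB1 (0.84, standard error 0.20, edgeR adjusted p = 0.0279), the cytokinesis kinesin KIF20A (0.84, 0.18, adjusted p = 0.0208) and the spindle kinase AURKA (0.75, 0.17, adjusted p = 0.0247) rose, while TOP2A fell by 0.58 (adjusted p = 0.0496). The mean of CCNB1 was 243 CPM in C1, 154 in C2 and 275 at 0.5 μM, and its change in treated against untreated samples was 0.06 and not called. On the dose slope 9 of the 24 were called higher and none lower, where 1.02% of all genes were higher, with a median of 0.17 per 10-fold dose. With C1 left out 5, 9 and 7 of the 24 were called lower at 0.0005, 0.005 and 0.05 μM (4.5%, 6.13% and 9.07% of all genes). In the same fits 0, 0 and 3 were called higher (5.68%, 6.47% and 9.97%). At 0.5 μM the count without C1 was 6 higher and 5 lower, where 9.21% of all genes were higher and 10.7% lower.

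**Figure D4:**
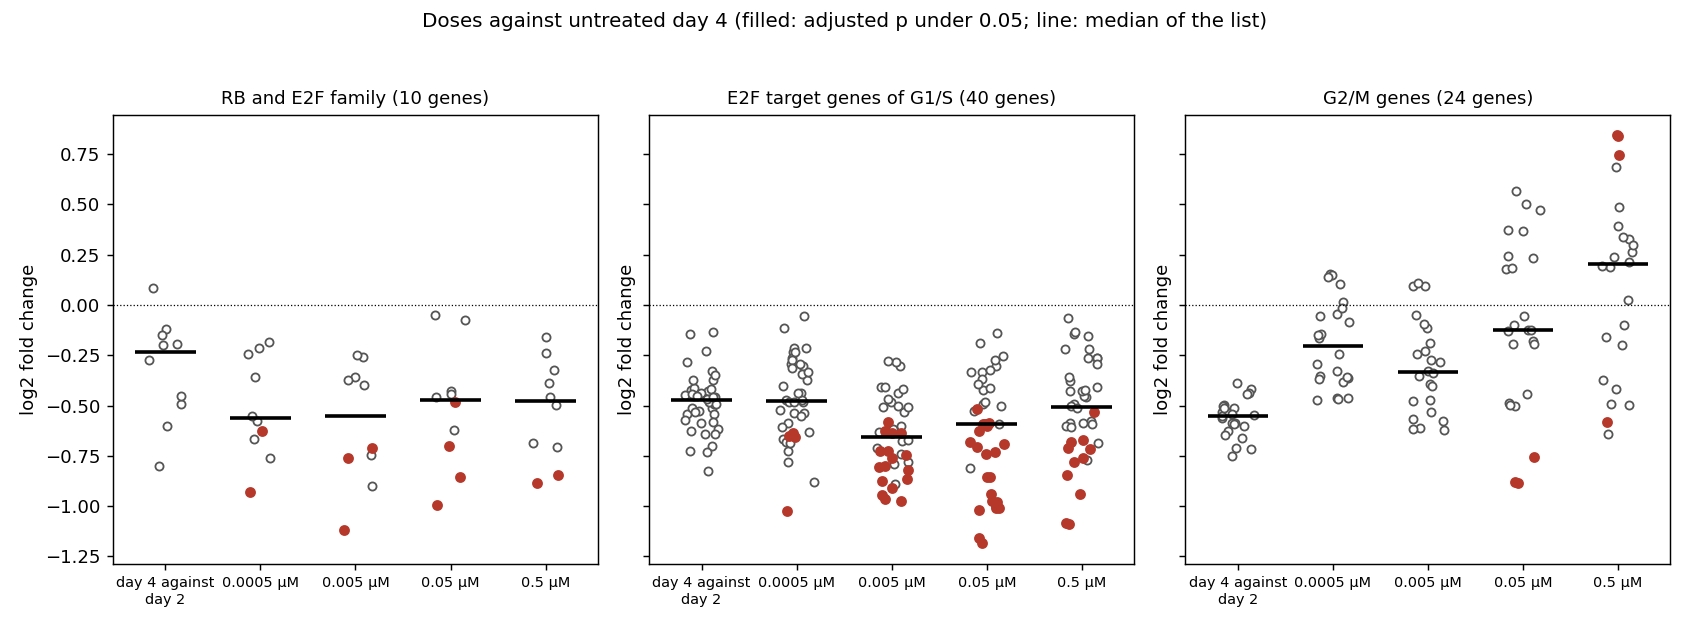
Log2 fold changes of the 10 members, of 40 E2F target genes of G1/S and of 24 G2/M genes, for C2 against C1 and for each dose against C2, with filled points where the adjusted p was under 0.05 and lines at the medians. The members and the G1/S genes lie at or below 0 at every dose, whereas the G2/M median moves from -0.33 at 0.005 μM to 0.20 at 0.5 μM.

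The kinases and inhibitors upstream of the pocket proteins formed another list. Of 16 kinases, cyclins and inhibitors, 13 were tested, and 7 were lower and 1 higher in treated against untreated samples, where 11.3% of all genes were lower and 13.1% higher. CDK2, the kinase of cyclin E, was at -0.69 (standard error 0.08, edgeR adjusted p = 2.92e-05) and its cyclins CCNE2 and CCNE1, which are also in the G1/S list, at -0.76 and -0.60, while the inhibitor CDKN1C was at 0.58 (standard error 0.15, edgeR adjusted p = 0.0116). Against C2 CDKN1C was called higher at 0.0005 μM (0.88) and had 0.12 at 0.5 μM, and it was called lower on the dose slope at -0.23 per 10-fold dose (standard error 0.04, edgeR adjusted p = 0.0108). CDK2 was also the gene of this list called lower at 0.5 μM against C2, at -0.57, where 1.96% of all genes were. Without C1, 4 of the 13 were called lower and 0 higher at 0.5 μM, against 10.7% and 9.21% of all genes. At 0.0005 μM 2 were then lower and 2 higher, against 4.5% and 5.68%. With C1 left out, CCND1 and CDK2 were the 2 of the 13 called lower in treated samples (6.35% of all genes were), and none was higher. CDK2 then had -0.58, while CCNE2 (-0.29), CCNE1 (-0.35) and CDKN1C (0.52) were not called. The transcripts of the inhibitors CDKN2A and CDKN2B had 0 counts in all 12 samples, which allows up to 0.0354 to 0.0895 CPM (3 counts per library, counting error only). CDKN1A, the p53-responsive inhibitor p21, was at 49.7 to 107 CPM with a log2 change of 0.08 in treated against untreated samples (standard error 0.18, edgeR adjusted p = 0.786). It was called lower on the dose slope, at -0.31 per 10-fold dose (standard error 0.04, edgeR adjusted p = 0.00105), with 0.52 at 0.0005 μM and -0.49 at 0.5 μM against C2, neither of them called. The cyclin CCNA2 was the gene of this list called higher on the dose slope, at 0.17 per 10-fold dose (standard error 0.04, edgeR adjusted p = 0.0408), and was lower in treated against untreated samples at -0.48.

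Among 11 other family and MuvB genes 3 were called lower in treated against untreated samples: RBBP4 at -0.53 (standard error 0.10, edgeR adjusted p = 0.00162), MYBL2 at -0.72 and FOXM1 at -0.73, where 11.3% of all genes were. RBBP4, a histone chaperone, was also called at 0.5 μM against C2 (-0.52, adjusted p = 0.0367). The family members E2F5, E2F6 and TFDP2 had 0.06, 0.05 and -0.05, with standard errors of 0.08 to 0.09, and were not called. With C1 left out, RBBP4 (-0.41) was the 1 of the 11 called lower in treated samples, a share of 9.09% against 6.35% of all genes.

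The E2F words of the start windows were also counted over all genes with a window. In treated against untreated samples 26.1% of 785 tested genes with at least 1 word were called lower, against 14.8% of 12510 without one, and the median log2 changes were -0.16 and -0.06. Of the 36 genes with 2 or more words, RBL1 and E2F1 among them, 18 were called lower (50%, median -0.25). Against C2 alone the shares were 14.9% with a word, 8.38% without and 38.9% with 2 or more. With rising dose against C2 they were 1.4%, 3.69%, 7.9% and 3.44% with a word, 0.528%, 0.863%, 4.11% and 2.57% without, and 11.1%, 16.7%, 25% and 19.4% with 2 or more. On the dose slope 1.27% with a word, 2.62% without and 2.78% with 2 or more were called lower. Among the G1/S genes 22 of 34 with a window held a word, and among the G2/M genes 2 of 19. Of the members with a word, RBL1, E2F1, E2F2 and TFDP1 were called lower in treated against untreated samples and E2F3 was not. Of those without one, RBL2 and E2F7 were called lower and E2F4 was not.

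The genes whose pattern over the 12 samples was nearest to a member were found by the root mean square difference of mean-centred log2 CPM, among 11082 named genes of at least 5 CPM that are no members. For RBL1 they were CLSPN (0.08), CDC6 (0.08) and WDR76 (0.08), where RBL1 itself had a standard deviation of 0.55 over the samples. For E2F1 they were CHAF1B (0.08), CHAF1A (0.08) and ZNF367 (0.11), with a standard deviation of 0.57. For RB1, which varied less (standard deviation 0.24), they were VMA21 (0.04), JPT2 (0.04) and PTPN11 (0.05). All points share the 12 libraries and their normalization.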

How the data were processed

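RNA counts of 12 samples (38380629 to 79169121 per library) were used as the authors deposited them: whole-number counts per Ensembl gene, not normalized. Per the study's methods and submitters' processing notes, paired reads were trimmed with Trimmomatic 0.39, checked with FastQC 0.11.9, aligned with STAR 2.7.5 to GRCh37/hg19, and unique alignments counted over exons with Rsubread. The annotation version and strand setting are not given in the sources used here, so overlapping genes can share reads. Symbols were found for 55665 of 63568 identifiers. The members and gene lists were chosen with earlier results of these data known. Further genes were named by a rule: from each list, up to 4 called genes of at least 5 CPM with the largest rise or fall at 0.5 μM against C2 and in treated against untreated samples, plus the 3 genes nearest in pattern to RB1, RBL1 and E2F1. CCNA2, CCND1, CDKN1A, CDKN2A, CDKN2B, E2F5, E2F6 and TFDP2 were named after their values were seen.

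The test was edgeR 4.0.16 (R 4.3.3): TMM library sizes, filterByExpr over the 6 conditions, and a robust quasi-likelihood fit. The doses against C2 and C2 against C1 came from 1 model of 6 conditions (6 residual degrees of freedom), and treated against untreated samples and the slope over the logarithm of dose had fits of their own. The fit of treated against untreated samples held only these groups, so samples of different doses or days were taken as replicates. Benjamini-Hochberg adjustment covered 25249 genes, with calls at 0.05. An exact permutation test of 2 against 2 samples cannot go below p = 0.333. CPM used TMM library sizes, and exon lengths came from a GENCODE annotation of GRCh37. The scripts were tested on simulated data. Alternatives were DESeq2 1.42.0, RLE normalization, no filter, GC content and length offsets, a replicate block, fewer samples, identifiers with a symbol only and each sample left out in turn. Leaving out both C1 samples, C2 as the only control, and the restriction to symbols were chosen after seeing the data.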

Additional observations from a re-analysis of the deposited data

How the results depend on the processing

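The direction of the members held in most alternatives, whereas the number called at a dose did not. Members called lower at 0.0005, 0.005, 0.05 and 0.5 μM against C2 (2, 3, 4 and 2 as reported) ranged over 0 to 7, 0 to 7, 1 to 8 and 0 to 7 when each sample was left out, and were 7, 7, 8 and 7 without both C1 samples. At 0.0005 μM the count was 4 with DESeq2, 5 with GC content and length offsets and 6 from the 4 samples of the comparison alone. At 0.005 μM it was 6 with the offsets, 5 without the filter and 7 from the 4 samples alone. At 0.5 μM it was 5 with DESeq2, 6 with the offsets, 4 without the filter and 6 from the 4 samples alone. C2 against C1 had 1 member with DESeq2 and 1 without the filter, and 0 to 6 with a sample left out. The slope kept 0 members called in every alternative, and treated against untreated samples had 8 to 10, with 10 under DESeq2 and the offsets and 9 with RLE. The cause of these differences was not tested.

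The replicate numbers were not taken as pairs in the main fits, since the study's model is not stated to hold a block. Of 15 pairs of conditions 6 had a correlation of their deviations over 0.1 (range -0.299 to 0.359). These were C1 with C2 (0.294) and 0.5 μM (0.208), C2 with 0.05 and 0.5 μM (0.244 and 0.296), 0.05 with 0.5 μM (0.359) and 0.0005 with 0.005 μM (0.116). Structure shared by replicate number is therefore possible. With the replicate block alone E2F1 was also called at 0.005 μM (log2 change -0.89, adjusted p = 0.02035 in edgeR), which made 4 members there, and changed the call of no other member. With the replicate block and the offsets together the count of members was 5, 6 and 7 at 0.0005, 0.005 and 0.5 μM.

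Directions turned for 6 members in C2 against C1 without C1 replicate 1 and for RBL2 without C2 replicate 1. With each sample left out in turn the log2 change ranged from -0.763 to 0.023 for E2F1, -0.48 to 0.214 for E2F3, -0.384 to 0.08 for E2F4, -0.263 to 0.023 for E2F7, -0.225 to 0.04 for RB1, -0.014 to 0.177 for RBL2 and -0.493 to 0.047 for TFDP1. The E2F1 slope turned to 0.007 without the lowest dose.

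Over all genes the number called, as reported, was 592, 827, 2100 and 1596 at the 4 doses, 82 for C2 against C1, 773 for the slope and 6155 for treated against untreated samples. DESeq2 gave 1173 and 1362 at the 2 lower doses, 243 for C2 against C1 and 1509 for the slope. The offsets gave 1084, 2176, 3164 and 2993 at the doses, and with the replicate block 1208, 2548, 3363 and 3405, and 381 for the slope (420 with the block alone). Without the filter the counts were 1480, 1909 and 2807 at 0.0005, 0.005 and 0.5 μM, 390 for C2 against C1 and 1462 for the slope. The 4 samples alone gave 2624, 2592 and 2578 at those doses and 0 for C2 against C1. Without C1 the doses gave 2569, 3181, 4808 and 5033, and treated against C2 samples 3397. The slope without the lowest dose had 31. Leaving out each sample gave 141 to 2570, 84 to 3280, 322 to 4798 and 128 to 5033 at the doses, 47 to 2785 for C2 against C1, 124 to 1017 for the slope and 4105 to 6947 for treated against untreated samples. Where 1 sample of a condition remained, it was assumed to vary like the others. E2F3 and E2F4 were called lower in treated against untreated samples in 4 and 7 of 21 alternatives.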
